A study of Homo sapiens with 30 samples.

Results

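The net change of WT cells from their unperturbed state was measured by setting 3 cytosol libraries of cells given tetracycline and then sodium arsenite against 3 cytosol libraries of the same line left without either agent. These 6 libraries were chosen by their titles and treatment labels, out of 30 in the series. The cells are FT293, a Flp-In T-REx derivative of the human embryonic kidney line HEK293, with a GFP-tagged wild-type TIA1a gene placed under a tetracycline-inducible system. Arsenite was applied at 0.5 mM for 60 min, and the dose and duration of tetracycline are not given in the sources used here. The untreated group therefore carries the GFP-TIA1a gene too, uninduced, along with the cells' own TIA1. A further 3 libraries of the line with tetracycline alone place the net change in its 2 steps. The WDM line, which carries TIA1a with the Welander distal myopathy mutation, gave 6 libraries of the matching untreated and arsenite groups, and these share none with the WT comparison. No cytosol group received arsenite without tetracycline, and no parental line without the transgene was analysed here, so effects of the antibiotic, of induced GFP-TIA1a and of arsenite cannot be told apart in the net change. Whether replicates are separate cultures is not stated, and p-values measure only the spread between these libraries.

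Arsenite binds protein thiols and is a standard trigger of oxidative and proteotoxic stress. Kinases that sense it phosphorylate eIF2, most translation stops, and untranslated mRNAs gather with RNA-binding proteins such as TIA1 and G3BP1 in cytoplasmic stress granules. In parallel, stress-activated MAP kinases switch on immediate-early genes, whose promoters are poised and whose mRNAs are short-lived, before slower programmes of chaperones and antioxidant enzymes build up.

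Total counts were 9500101 to 10362221 in the untreated libraries and 12499022 to 13105930 in the arsenite libraries. Levels are given as CPM (read counts relative to library size) scaled by TMM, edgeR's correction for composition, and 3 counts, the limit that a count of 0 allows, correspond to 0.221 to 0.325 CPM in these 6 libraries. These limits hold for counting error alone, because the reads carry no molecular identifiers and can be copies of one another. Calls were made at adjusted p under 0.05 in edgeR's quasi-likelihood test, with Benjamini-Hochberg adjustment over 16670 genes. HEK293 markers were present, 7 of 8 at 1 CPM or more in untreated cells, with a summed level of 1515 to 1602 CPM untreated and 1600 to 1656 CPM with arsenite. Immune markers summed to under 1 CPM in each of the 9 WT libraries (0 of 6 reached 1 CPM). In untreated cells 0 of 4 endothelial and 0 of 4 skeletal muscle markers reached 1 CPM. Fibroblast markers did in 4 of 5, with a sum of 9.33 to 11.4 CPM. Mature kidney tubule markers did in 1 of 5 and summed to 119 to 143 CPM, with LRP2 at a mean of 131 CPM. The induction itself could not be checked, because TIA1 had 0 counts in each of the 6 libraries compared and 1 count in the sum of the 3 tetracycline libraries. Tetracycline replicate 1 stood apart from replicates 2 and 3 on the first component of the 9 WT cytosol libraries, which held 60% of the variance. Across 11607 genes at 5 CPM or more, its deviation from the other tetracycline libraries correlated with the net change at r = 0.48, a description across genes that are not independent. The net change itself uses no mean of a tetracycline library, but its p-values rest on a spread estimated over all 18 cytosol libraries. Leaving out tetracycline replicate 1 left the net log2 change of MT-CO1 at -0.33 and took its edgeR adjusted p from 0.0574 to 0.00766. For NEAT1 the adjusted p went from 0.0481 to 0.0160 and for CREBBP from 0.0221 to 0.00126. Net calls are given with that library included. Both steps do use such means, and the class counts that rest on them are given with and without that library. Other counts from the steps, such as those of gene list members, are given only with it.

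Levels of many genes differed between cells given tetracycline plus arsenite and untreated cells. Of the 16670 genes, 5390 were called (32.3%), with 2538 higher (15.2%) and 2852 lower (17.1%). Large changes were mostly rises. A log2 change of at least 1 was called upward for 771 genes (4.63%) and downward for 223 (1.34%). Every arsenite library lay above every untreated library for 4235 genes (25.4%) and below for 4862 (29.2%). The split between directions depends on scaling, since 47.1% of calls were higher with TMM and 64.4% when counts were scaled by library size alone. The median log2 change of all genes was -0.03 with TMM and 0.07 with library size alone, and changes below are relative to these. Without the filter on low counts 59.2% of calls were higher.

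**Figure D1:**
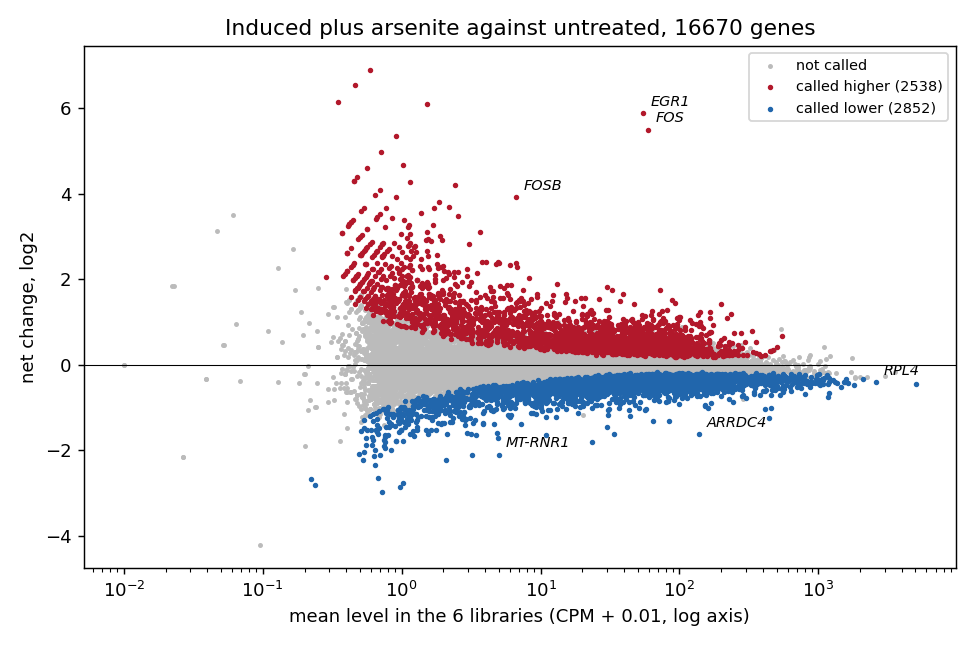
Each point is 1 of 16670 genes, with the mean CPM over the 6 libraries (plus 0.01, log axis) on the x axis and the log2 net change on the y axis; red marks the 2538 genes called higher and blue the 2852 called lower. EGR1, FOS and FOSB lie far above other genes of their level, and the called falls reach into the most abundant genes, such as RPL4.

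Among genes at 5 CPM or more the 3 largest rises belonged to immediate-early transcription factors. EGR1, a zinc-finger factor induced by growth and stress signals, measured 1.81, 1.84 and 1.78 CPM in the untreated libraries and 122, 100.1 and 101 CPM with arsenite. The groups lay far apart, and the log2 change was 5.89 ± 0.21 (SE, adjusted p = 3.65e-13), a 59.1-fold rise. FOS, a partner of JUN in the AP-1 dimer, went from 2.51, 3.58 and 1.68 CPM to 112, 112 and 124 CPM, again without overlap (log2 5.50 ± 0.28, adjusted p = 5.02e-09). FOSB, a close relative of FOS, stood at 0.602, 0.868 and 0.988 CPM in untreated cells and at 12.3, 11.4 and 13.9 CPM with arsenite. Its log2 change was 3.92 (SE 0.41, adjusted p = 6.61e-06). With tetracycline alone EGR1 measured 0.777 to 2.38 CPM, a range that takes in the untreated libraries.

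The promoters of these genes are shown because their transcripts rose together. For EGR1, FOS, FOSB and MAFF the 150 bases before the RefSeq start (GRCh38.p14, plus strand in all 4) were searched on both strands for the CArG box bound by serum response factor, for TGACG, the core of the cyclic AMP response element, and for TATAAA. Capitals mark the matches; in MAFF one match on each strand overlap and are marked as 1 run.
EGR1 chr5:138465329-138465478: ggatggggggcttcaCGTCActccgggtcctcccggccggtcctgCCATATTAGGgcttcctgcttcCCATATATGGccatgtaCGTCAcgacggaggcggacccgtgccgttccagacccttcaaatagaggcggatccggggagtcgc
FOS chr14:75278678-75278827: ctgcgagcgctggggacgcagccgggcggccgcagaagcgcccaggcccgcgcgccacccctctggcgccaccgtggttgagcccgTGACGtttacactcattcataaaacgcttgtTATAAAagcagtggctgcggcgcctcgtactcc
FOSB chr19:45467846-45467995: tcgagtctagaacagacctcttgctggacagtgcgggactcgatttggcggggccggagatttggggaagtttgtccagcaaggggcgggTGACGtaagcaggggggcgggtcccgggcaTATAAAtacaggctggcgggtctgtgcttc
MAFF chr22:38201844-38201993: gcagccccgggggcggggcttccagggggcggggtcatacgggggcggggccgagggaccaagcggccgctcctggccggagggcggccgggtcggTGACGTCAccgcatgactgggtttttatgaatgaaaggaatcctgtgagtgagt
The EGR1 window held 2 CArG boxes, 105 and 83 bases before the start, and such a box was found in 0.769% of all 35116 promoter windows of that length. TGACG lay 64 bases before the start in FOS, 60 in FOSB and 54 in MAFF, with an overlapping match on the other strand 51 bases before the MAFF start, and was present in 15.4% of all windows. TATAAA lay 33 and 30 bases before the starts of FOS and FOSB, against 6.71% of all windows. Of the 17 immediate-early genes called higher, 13 matched the promoter table and 8 of these held TGACG (EGR1, FOS, FOSB, IER2, JUN, JUNB, JUND and MAFF). TATAAA was found in 4 of the 13 and a CArG box in 1, EGR1. MAFF has a second RefSeq start, whose window held none of the 3 motifs. A match is a run of letters and was not tested as a site.

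Around these leaders the immediate-early list moved widely, though not as a block. Of 29 tested members, 17 were called higher and 1 lower (58.6% and 3.45%, against 15.2% and 17.1% of all genes), with a median log2 change of 0.66. IER2, a nuclear regulator, went from 29.8, 36.8 and 34.1 CPM to 114, 105 and 118 CPM (log2 1.74 ± 0.10, adjusted p = 4.58e-10), although 52.2% of its exon length is overlapped by exons on the opposite strand and the strand setting of the counting is not given in the sources used here. JUNB rose by 1.53, JUND by 0.96 and JUN, their AP-1 sister, by 0.78, from 243 ± 31.2 to 418 ± 19.5 CPM (SD, n = 3). ATF3, a stress-induced repressor of the CREB family, rose by 0.96. FOSL1 and MAFF, a FOS relative and a small MAF factor, rose by 2.34 and 2.29. EGR3, a relative of EGR1, had 3, 1 and 2 counts in the untreated libraries and 25, 25 and 20 counts with arsenite. MYC, the growth regulator, was the member that fell, from 195, 201 and 203 CPM to 104, 97.1 and 113 CPM (log2 -0.93 ± 0.10, adjusted p = 2.55e-06). It had already fallen with tetracycline (log2 -0.60, adjusted p = 0.00253) and its arsenite step was a further fall (log2 -0.33, adjusted p = 0.0155); without tetracycline replicate 1 these were -0.59 and -0.34, both called. No member of the list was called higher with tetracycline alone.

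Genes that damp these signals rose too. Among 31 tested feedback regulators 21 were called higher and 2 lower (67.7% and 6.45%), with a median of 0.69. Of the 31, 6 had already been called higher with tetracycline alone, against 2.93% of all genes. ZFP36, which binds AU-rich elements and promotes decay of the mRNAs that carry them, measured 1.41, 0.976 and 1.19 CPM untreated and 7.04, 6.94 and 5.09 CPM with arsenite (log2 2.40 ± 0.26, adjusted p = 4.87e-06). DUSP1, a phosphatase that switches off MAP kinases, rose from 17.6, 20.7 and 18.2 to 59.2, 57.4 and 61.9 CPM (log2 1.66 ± 0.11, adjusted p = 5.07e-09). In neither gene did the groups overlap. SGK1, a serum-induced kinase, rose by 1.55, SPRY4, an inhibitor of receptor tyrosine kinase signals, by 1.39, and SOCS3, a brake on cytokine receptors, by 1.34. PPP1R15A, the GADD34 subunit that steers dephosphorylation of eIF2, rose by 1.08 from 29.4 ± 0.269 to 62.1 ± 2.09 CPM (SD, n = 3). ID2, an inhibitor of basic helix-loop-helix factors, fell from 90.05, 96.0 and 88.95 to 34.6, 35.9 and 40.7 CPM (log2 -1.31 ± 0.13, adjusted p = 2.14e-06), and TRIB1 fell by 0.25, a call lost without any 1 of 3 libraries and with scaling by library size alone.

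**Figure D2:**
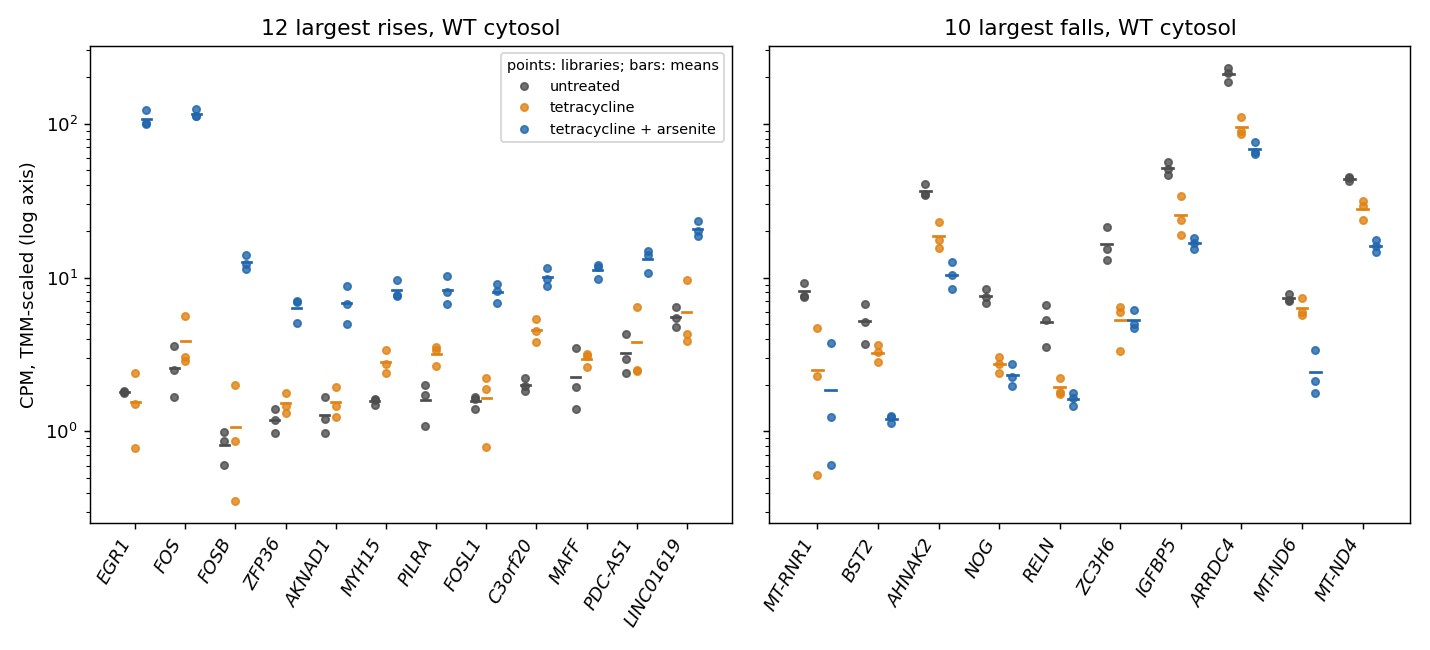
Levels in CPM (log axis) of the 12 genes with the largest called rises and the 10 with the largest called falls, at 5 CPM or more in the higher group and without overlap between untreated and arsenite libraries; points are libraries, bars group means (n = 3). In the rises the tetracycline libraries lie mostly near the untreated ones, and in the falls of NOG, RELN, ZC3H6 and ARRDC4 they lie mostly near the arsenite ones.

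The remaining large rises were of another kind. AKNAD1, MYH15, PILRA and C3orf20 are protein-coding genes at low levels in these cells, and each rose by 2.32 to 2.39 on the log2 scale. MYH15, a myosin heavy chain, went from 1.61, 1.63 and 1.48 CPM to 7.58, 9.58 and 7.66 CPM, with 2.75, 3.37 and 2.38 CPM under tetracycline. C3orf20 was called higher in both steps, by 1.18 and 1.14. The long noncoding RNAs PDC-AS1 (log2 2.02 ± 0.30) and LINC01619 (log2 1.89 ± 0.32) completed the 12. Each of these 6 genes was also called higher in the WDM line, by 1.63 to 2.27.

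Falls were led by mitochondrial transcripts and by genes already reduced with tetracycline. MT-ND4, a complex I subunit encoded in the mitochondrial genome, went from 44.9, 42.6 and 44.4 CPM to 14.7, 16.0 and 17.6 CPM (log2 -1.45 ± 0.15, adjusted p = 2.64e-06), with 29.1, 23.7 and 31.4 CPM after tetracycline. MT-ND6, the one protein gene on the light strand, measured 7.13, 7.05 and 7.81 CPM untreated and 1.78, 2.11 and 3.39 CPM with arsenite (log2 -1.59). MT-RNR1, a ribosomal RNA that the library kit is designed to remove, fell by 2.10 with a wide error (SE 0.62, adjusted p = 0.0184). Its call was lost without untreated replicate 2 and without arsenite replicate 1 or 2. Of the 15 tested mitochondrial genes 12 were called lower (80.0%, against 17.1% of all genes) and 0 higher at adjusted p under 0.05. The other 3 (MT-CO1, MT-ND3 and MT-RNR2) had log2 changes of -0.33, -0.46 and -1.17. The median of all 15 was -0.88. With scaling by library size alone 9 were called lower and 0 higher, with a median of -0.79. The summed level was 1512 to 1677 CPM untreated, 1051 to 1421 CPM with tetracycline and 1083 to 1162 CPM with arsenite, so the tetracycline and arsenite ranges overlap. In bulk RNA of a cytosol fraction, fewer cells with a transcript, less of it per cell and less of it in that fraction cannot be told apart.

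ARRDC4, an arrestin-domain protein linked to glucose uptake, fell from 231, 212 and 186 CPM to 64.0, 75.5 and 65.7 CPM (log2 -1.62 ± 0.14, adjusted p = 9.56e-07). AHNAK2, a giant scaffold protein, fell by 1.81, from 40.3, 34.4 and 35.1 to 12.6, 8.37 and 10.3 CPM. IGFBP5, which binds insulin-like growth factors, fell by 1.62, and BST2, an interferon-inducible membrane protein, by 2.10. No groups overlapped in these 4 genes, and each was also called lower in WDM cells (log2 -2.08 to -1.38).

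Transcripts of the translation machinery shifted down together by a small amount. Of 74 tested ribosomal protein genes 70 were called lower and 0 higher (94.6% against 17.1% of all genes), with a median log2 change of -0.40 and a range of -0.50 to -0.06. The 4 not called were RPL22, RPL28, RPS9 and RPS16. RPL4, a core protein of the large subunit, went from 2980 ± 98.6 to 2243 ± 38.1 CPM (SD, n = 3). Their summed level was 59849 to 63265 CPM untreated and 45690 to 48023 CPM with arsenite, and 49185 CPM in tetracycline replicate 1 against 61740 and 62441 CPM in replicates 3 and 2. Many of these genes have near-identical pseudogene copies, so their counts are uncertain. Of 15 other tested genes with 5′-terminal oligopyrimidine (TOP) mRNAs, 7 were called lower and 0 higher at adjusted p under 0.05, with EEF1A1, the elongation factor, down by 0.45. With counts scaled by library size alone, 64 ribosomal protein genes and 5 other TOP genes were still called lower, with medians of -0.30 and -0.16.

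The chaperone, antioxidant and integrated stress programmes held calls in both directions after 60 min, read against 15.2% higher and 17.1% lower among all genes. Among 22 tested heat shock genes 5 were called higher and 2 lower (22.7% and 9.09%), with a median of 0.00. BAG3, a co-chaperone of HSP70, rose by 0.87, from 20.2, 21.0 and 22.5 to 42.2, 38.8 and 35.9 CPM (adjusted p = 0.000403). DNAJB1, an HSP40, rose by 0.68 and HSPH1 by 0.33, while HSPA4L and HSPD1 fell by 0.27 and 0.30. HSP90AA1 measured 806 ± 39.6 and 916 ± 194 CPM (SD, n = 3) and was not called. Of 21 tested targets of NRF2, the antioxidant master regulator, 2 were called higher (9.52%), with ME1 up by 0.38, and 3 lower (14.3%), TXN and SLC7A11 among them by 0.52 and 0.36. HMOX1, the heme oxygenase often used as an arsenite marker, stood at 8.73, 10.6 and 12.8 CPM untreated and 12.2, 14.5 and 13.1 CPM with arsenite. These ranges overlap, and the log2 change of 0.31 (95% interval -0.04 to 0.65) was not called. In WDM cells HMOX1 was called higher by 1.06, but the difference between lines was not (log2 -0.75, adjusted p = 0.728). Of 5 tested metal-response genes SLC30A1, a zinc exporter, rose by 0.59 and SLC39A10, a zinc importer, fell by 0.97. Among 22 tested genes of the integrated stress response, the programme downstream of eIF2 phosphorylation, 5 were called higher and 5 lower (22.7% each). DDIT3 (CHOP) rose by 0.65 and CHAC1, a glutathione-degrading enzyme, by 0.72, while ATF4, their inducer, measured 736 ± 16.1 and 687 ± 21.5 CPM (SD, n = 3) and was not called. ATF5 was called higher by 1.02, and this difference was present with tetracycline alone (0.93). Of 14 p53 targets, 4 were called higher (28.6%), with PLK3 up by 1.24, PLK2 by 0.98 and CDKN1A by 0.35, and 4 lower, with FAS at -0.39. These splits depended on scaling, since with library size alone heat shock genes had 7 called higher and 0 lower, integrated stress genes 6 and 0, p53 targets 4 and 0, and NRF2 targets 4 and 2. Several of these small changes lay near the threshold, and with 1 library fewer the call was lost although the log2 change hardly moved (-0.31 to -0.28 for HSPD1, 0.32 to 0.38 for CDKN1A, 0.29 to 0.37 for HSPH1). The call was lost without any 1 of 6 libraries for HSPD1, of 4 for ME1 and CHAC1, of 3 for FAS and of 2 for HSPH1 and CDKN1A, and those of HSPA4L, HSPD1 and FAS with scaling by library size alone.

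**Figure D3:**
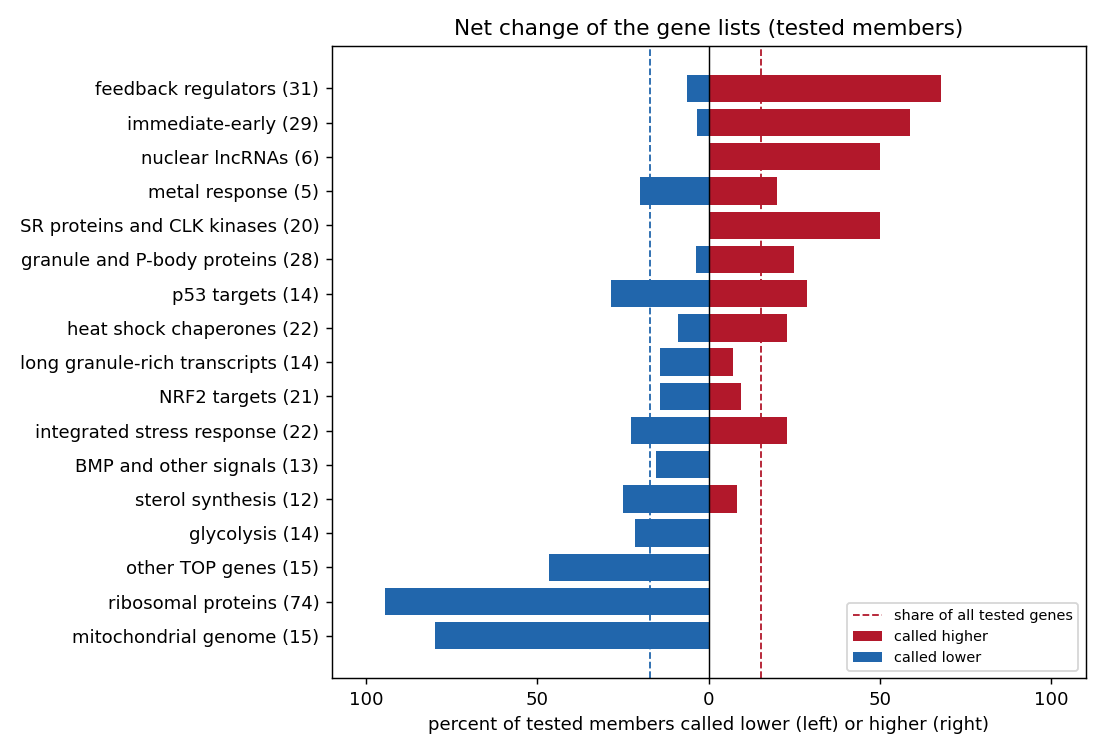
Percent of the tested members of each gene list (number in brackets) called lower (left, blue) or higher (right, red) in the net change, ordered by the list's median; dashed lines mark the shares of all 16670 genes, 17.1% lower and 15.2% higher. Feedback and immediate-early genes reach 67.7% and 58.6% higher, and ribosomal protein genes 94.6% lower.

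Nuclear and RNA-processing transcripts leaned upward. Of 6 tested nuclear long noncoding RNAs 3 were called higher (50.0%, against 15.2% of all genes) and 0 lower at adjusted p under 0.05. In WDM cells 2 of the 6 were called higher, with a median of 0.32. KCNQ1OT1, an imprinted antisense RNA, went from 9.54, 6.07 and 7.91 to 23.7, 25.0 and 20.9 CPM (log2 1.56 ± 0.22, adjusted p = 6.81e-05). NEAT1, the scaffold of paraspeckles, measured 94.9, 82.7 and 91.0 CPM untreated and 139, 172 and 208 CPM with arsenite. Its call (log2 0.95 ± 0.35, adjusted p = 0.0481) was lost when any 1 of the 6 libraries was left out and with scaling by library size alone. The remaining call of the 3 was lost without untreated replicate 2 or without arsenite replicate 1. The 6 RNAs together summed to 625 to 731 CPM untreated and 891 to 953 CPM with arsenite. In tetracycline replicate 1 the sum was 874 CPM, and in replicates 2 and 3 it was 475 and 454 CPM. Their part in the other changes was not tested. Among 20 genes of SR splicing factors and their CLK kinases, 10 were called higher (50.0%) and 0 lower at adjusted p under 0.05. SRSF6 rose by 1.08, from 3.71, 4.12 and 5.14 to 9.36, 8.52 and 9.65 CPM, and had already reached 8.04, 8.72 and 10.2 CPM with tetracycline. CLK1 rose by 0.59 and SRSF5 by 0.45, the latter not called without untreated replicate 1. Of 28 tested granule and P-body proteins 7 were called higher (25.0% against 15.2% of all genes) and 1 lower, or 13 and 1 with scaling by library size alone, with ATXN2 up by 0.69 and the decapping enzyme DCP2 down by 0.44. Long transcripts known for their enrichment in granules went both ways, with CREBBP up by 0.82, AHNAK down by 1.02 and NORAD down by 0.57. Of 14 tested, 1 was called higher and 2 lower (7.14% and 14.3%), shares under the 15.2% and 17.1% of all genes. CREBBP lost its call without any 1 of 4 libraries (each untreated library and arsenite replicate 1), and AHNAK without any 1 of 3. Of 12 tested sterol synthesis genes 3 were called lower (25.0% against 17.1% of all genes) and 1 higher, with a median of -0.11. SQLE and INSIG1 fell by 0.90 and 0.81.

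The steps were then used to separate rises above baseline from recoveries of a fall under tetracycline. Both steps share the tetracycline libraries with opposite sign, and each shares a group with the net change. Of 2279 genes that rose in the arsenite step (13.7%), 1546 were called above the untreated state as well (9.27% of all genes), and 2 were called below it. The other 731 were not called against untreated cells, and among them were 74 genes (0.444% of all genes) that had been called lower with tetracycline. For 53 of the 74 (71.6%; 84 of 111 with the replicate number as a block) the 95% interval of the net change lay within a 1.5-fold change either way, a direct bound on the distance from baseline; for the rest no such bound was reached. The class requires that no net change was called, so its definition fixes the share within the bound in part. Median log2 changes of the 74 were -0.65 with tetracycline, 0.56 in the arsenite step and -0.07 net, values that the definition of the class also fixes in part. Among rises of at least 1 on the log2 scale in the arsenite step, 548 of 727 were called above untreated cells, and 958 of 1346 without tetracycline replicate 1. The class counts depended on single libraries. Without tetracycline replicate 1 there were 237 recoveries, 147 of them within the bound, and 2078 rises above both states; without tetracycline replicate 3 there were 14 recoveries, and without any other library 15 to 48. In the other direction, 1509 genes (9.05%) were called lower than both other states and 160 (0.96%) were recoveries of a tetracycline rise, a count of 285 with the replicate block and 619 without tetracycline replicate 1.

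EIF4A2, an RNA helicase of the translation initiation machinery, showed this course clearly. It measured 304, 295 and 270 CPM untreated, 134, 177 and 181 CPM with tetracycline and 263, 269 and 283 CPM with arsenite. The tetracycline libraries lay below both other groups, which overlapped, and the net change was -0.09 (95% interval -0.32 to 0.13). TIAL1, the paralog of TIA1, followed the same pattern with 71.8, 60.4 and 63.1 CPM untreated, 44.8, 34.3 and 31.3 CPM with tetracycline, and 62.9, 57.2 and 51.0 CPM with arsenite. Its tetracycline step was -0.82 (adjusted p = 0.00419), its arsenite step 0.63 (adjusted p = 0.00317) and its net change -0.19 (95% interval -0.48 to 0.10). HSPA1B, a stress-inducible HSP70, went from 605, 702 and 811 CPM to 408, 420 and 485 CPM with tetracycline and 583, 655 and 648 CPM with arsenite. In the arsenite step alone HSPA1B would count as an induced chaperone (log2 0.52, adjusted p = 0.000963), whereas against untreated cells its change was -0.17 (95% interval -0.38 to 0.04). HSPA1A, its near-identical neighbour, gave 0.50 in the arsenite step and -0.25 net, and reads shared between the copies cannot be assigned with certainty. EIF4A2, TIAL1 and HSPA1B stayed in the class in all 14 alternative fits, and HSPA1A in 13. DENND2A, LINC01409, CCDC18-AS1 and ZNF280D, the other genes of the class with large tetracycline falls, did so in 6, 12, 11 and 10 of the 14.

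Many tetracycline changes were instead kept through the arsenite step. In 451 genes (2.71%) the tetracycline step and the net change were called in the same direction and the arsenite step was not called, with 193 higher and 258 lower. Without tetracycline replicate 1 there were 258 higher and 250 lower. The total fell to 101 without untreated replicate 1, 108 without untreated replicate 2, 203 without untreated replicate 3, 168 without tetracycline replicate 3 and 261 without tetracycline replicate 2. NOG, a secreted antagonist of bone morphogenetic proteins, measured 8.43, 7.48 and 6.82 CPM untreated, 3.05, 2.76 and 2.38 CPM with tetracycline and 2.24, 1.96 and 2.73 CPM with arsenite. RELN, an extracellular matrix glycoprotein, went from 6.63, 5.31 and 3.56 to 2.23, 1.81 and 1.76 and then 1.47, 1.66 and 1.77 CPM. ZC3H6, a zinc-finger protein gene, fell by 1.64 in both the tetracycline step and the net change. ZSCAN5A, a zinc-finger factor, rose from 9.54, 9.00 and 9.29 CPM to 21.7, 19.8 and 23.6 and then 25.8, 24.1 and 27.8 CPM. In NOG and ZSCAN5A the untreated libraries lay apart from all 6 others. LINC01411 rose likewise (net log2 1.52) and SNTG2-AS1 fell (-1.36). NOG, SNTG2-AS1 and LINC01411 stayed in the class in all 14 alternative fits. Of the 398 genes called lower with tetracycline (2.39%), 275 were still called lower with arsenite, 4 were called higher and 119 were not called against untreated cells. Of the 488 called higher with tetracycline (2.93%), 221 were still called higher and 246 were not called; with the replicate block these were 735, 297 and 404. Without tetracycline replicate 1, 658 genes were called lower with tetracycline, 280 of them still lower with arsenite, and 1108 were called higher, 302 of them still higher. Without each other library of the step the tetracycline calls, 886 in all, numbered 189 to 404.

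**Figure D4:**
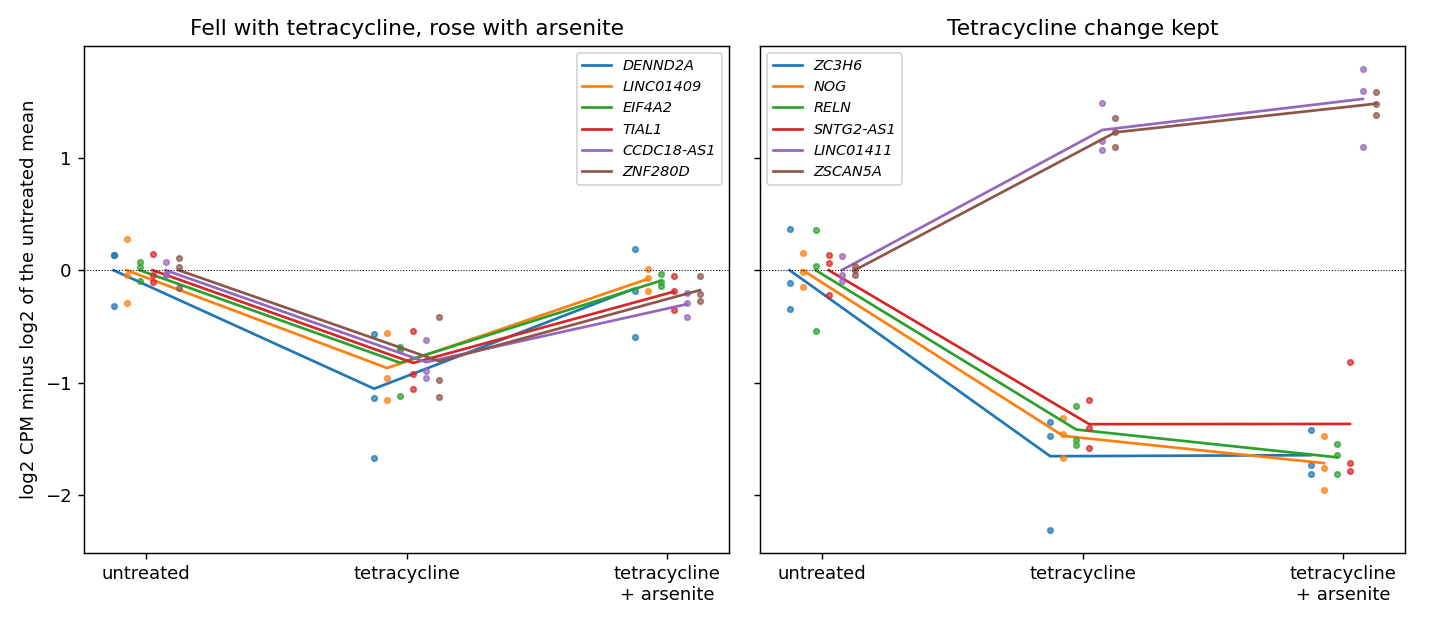
Level of each gene in each WT library as log2 CPM minus log2 of the untreated mean, for the 6 genes with the largest tetracycline step in the recovery class (left) and in the kept class (right); points are libraries, lines join group means, and small sideways shifts separate genes. On the left the values dip to about -1 with tetracycline and come back near 0, and on the right the 4 falls and 2 rises persist with arsenite.

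Beneath the named genes, the large rises had a genomic pattern, which was chosen for description after the values were seen. Of the 771 genes called higher by at least 1, 47.1% were annotated as long noncoding RNAs, against 15.45% of all tested genes (GENCODE v44), and 610 had a mean under 5 CPM over the 18 cytosol libraries. Among these 610, 239 genes (39.2%) began inside a gene on the same strand with at least 10 CPM, or within 10 kb past its end. Starts inside such a gene were counted at a distance of 0. This share was 17.6% among the 5063 tested genes under 5 CPM and 6.74% among the 178 of them called lower by at least 1. A neighbour on the same strand on the other side was found for 11.6% of the rising genes against 10.2%, and one on the opposite strand for 35.6% against 44.8%. The share of low-level genes called higher by at least 1 fell steadily with distance. It was 26.9% for starts inside the upstream gene or within 5 kb of its end and 26.8% at 5 to 10 kb. At 10 to 20 kb it was 22.1%, at 20 to 50 kb 13.2% and at 50 to 100 kb 9.61%. Farther away or with no such neighbour it was 6.12%. In the WDM line, whose libraries are separate, the shares ran from 29.7% to 8.47% in the same order.

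Among the 239 genes, 111 were protein-coding and 112 long noncoding. Their 234 upstream neighbours had a median log2 change of 0.03, with 18.8% called higher and 17.5% lower, beside 15.2% and 17.1% of all genes. Of the 239, 205 (85.8%) were also called higher in WDM cells, a share near the 85.0% of all 771 large rises. It was 80.3% among the 371 low-level large rises without such a neighbour. With tetracycline alone 2 of the 239 had been called higher (0.837%), beside 1.35% of those 371 and 2.93% of all genes. PON3, a paraoxonase gene (chr7:95359872-95396375, minus strand) 8487 bases past PON2, had 0, 0 and 0 counts untreated and 9, 19 and 8 counts with arsenite, at least 2.78-fold higher against 3 counts in the smallest untreated library. PON2 itself measured 54.8, 50.2 and 49.0 CPM untreated and 48.5, 52.3 and 53.1 CPM with arsenite (log2 0.00). MASP2, a complement protease gene 7345 bases past SRM, had 1 count in each untreated library and 22, 35 and 29 counts with arsenite. MINAR2, 9411 bases past ADAMTS19, had 0, 1 and 1 counts untreated, 10, 2 and 9 counts with tetracycline and 26 in each arsenite library. These 3 genes lie under the 5 CPM limit and were named after their values were seen.

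To give the pattern over genes whether or not they were called, the median log2 CPM difference from the untreated mean was taken over all 890 low-level genes within 10 kb and over the 2681 beyond 100 kb. The gap between these medians was -0.01 to 0.01 in the untreated libraries and 0.35 to 0.39 in the arsenite libraries, with no overlap. Genes can pass the low-count filter through the arsenite libraries alone, as PON3 did, so the filter fixes part of this gap and of the shares above. Over genes kept instead by at least 10 counts in each untreated WDM library and a mean there under 5 CPM (502 near and 1772 far), the gap was -0.01 to 0.01 untreated and 0.27 to 0.30 with arsenite, again without overlap. That filter was chosen after seeing the data. With 3 libraries against 3 no two-sided exact permutation test can go below p = 0.10, and none was run. In the tetracycline libraries the first gap was 0.21 in replicate 1 and 0.08 and 0.10 in replicates 2 and 3. In WDM cells the gap was 0.00 untreated and 0.25 to 0.49 with arsenite. There the summed nuclear long noncoding RNAs, 947 to 1033 CPM untreated and 989 to 1286 CPM with arsenite, overlapped between groups. Genes called higher spanned a longer stretch of genome than those called lower, with median spans of 61010 and 23380 bases against 32540 for all tested genes.

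**Figure D5:**
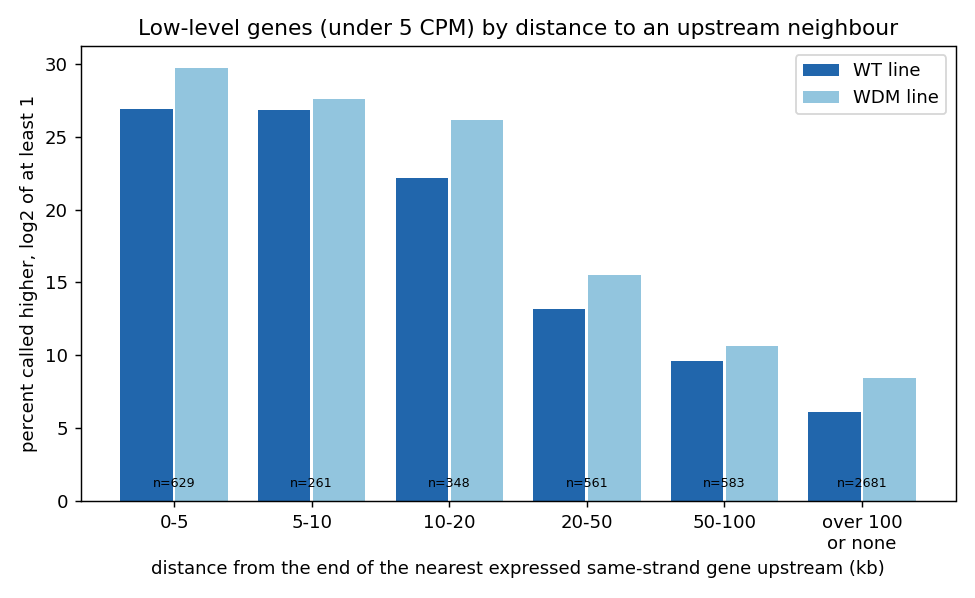
Bars give the percent of tested genes under 5 CPM called higher by at least 1 on the log2 scale, by distance from the end of the nearest upstream gene of at least 10 CPM on the same strand, in the WT (dark) and WDM (light) net changes; n is the number of genes tested per bin. Starts inside such an upstream gene count as distance 0. The shares fall from 26.9% and 29.7% within 5 kb to 6.12% and 8.47% beyond 100 kb or with no such neighbour.

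The WDM line offered the one check of the net change that shares no library with it. There 6513 genes were called (39.1%), 3174 higher and 3339 lower. Of the WT rises 2038 were also called higher in WDM cells (80.3% of the WT rises and 64.2% of the WDM rises), and of the falls 2204 (77.3% and 66.0%), while 4 genes were called in opposite directions. The test of the difference itself called 4 of 16670 genes (0.024%, 3 with a higher value in WT, 0.018%, and 1 with a lower one, 0.006%), against 760 at an unadjusted p under 0.05 and 7 called by DESeq2. EGR1 rose by 5.89 in WT and 6.19 in WDM cells, and FOS by 5.50 and 5.33, and neither difference was called (adjusted p = 1.00 for both).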

How the data were processed

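Counts are whole-number read counts per gene for 60664 genes, in a single table that the authors deposited, with each library in its own column. The submitters' processing notes name Trimmomatic, STAR, Picard and featureCounts and the build GRCh38, without order or settings; strand setting and annotation are not given in the sources used here. Libraries were made with a stranded TruSeq total-RNA kit after Ribo-Zero Gold depletion, per the labels' protocols. Of the identifiers 60463 are in GENCODE v44, all on the same chromosome.

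All 18 cytosol libraries (6 groups of 3) were fitted with group means in edgeR 4.0.16 under R 4.3.3 (TMM, filterByExpr with a minimum count of 10, robust quasi-likelihood, 12 residual degrees of freedom, biological coefficient of variation 0.103), with Benjamini-Hochberg adjustment over 16670 genes. Contrasts were the net change, its tetracycline and arsenite steps, the WDM net change and the difference between lines. Intervals are 95%. The fit was tested on simulated data. Replicates differed by more than sampling noise, and each was kept. The labels do not say that replicate numbers pair libraries. Deviations of same-numbered libraries from their group means correlated at 0.20, -0.04 and 0.24 between the net groups, 0.34, 0.31 and 0.13 between those of the tetracycline step, and 0.48, 0.13 and 0.55 between those of the arsenite step, so the replicate block is given beside step counts it moves by over 1.5 times. Other fits tried were scaling by RLE or by library size alone, no filter, a replicate block, only the groups compared, DESeq2 1.42.0 and each library left out.

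Named genes are the 12 largest rises and 10 largest falls (called, 5 CPM or more in the higher group, no overlap), the 6 largest tetracycline steps of the recovery and kept classes, the 3 smallest p of the line difference, and members of the gene lists. The comparison and the lists were chosen with earlier results of these data known. A few list members are not reported here by name.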

Additional observations from a re-analysis of the deposited data

Results flagged for a closer look

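In 4 genes the net change differed between the WT and WDM lines by the test of the difference (edgeR, adjusted over 16670 genes). ANOS1, which encodes the adhesion protein anosmin, measured 119, 111 and 96.1 CPM in untreated WT cells and 80.0, 82.4 and 83.5 CPM with arsenite, and 48.8, 49.9 and 54.8 CPM in untreated WDM cells and 13.5, 11.1 and 10.9 CPM with arsenite. No groups overlapped in either line, and the fall was deeper in WDM cells, with a difference of 1.70 ± 0.14 (log2, SE, adjusted p = 6.89e-07, at most 8.41e-06 over the alternatives). COL5A2, a fibrillar collagen chain, rose by 0.55 in WT cells, where it measured 5.92, 5.86 and 4.65 CPM untreated, and fell by 0.49 in WDM cells, where it measured 35.8, 37.7 and 39.9 CPM, a difference of 1.03 (adjusted p = 0.0386, range over alternatives 0.000379 to 0.232). LRRC7, a postsynaptic scaffold gene, rose by 0.72 in WT cells and fell by 1.07 in WDM cells, a difference of 1.79 (adjusted p = 0.0386, range 2.04e-08 to 0.278). APOLD1, an endothelial early-response gene, fell by 0.61 in WT cells and measured 58.5, 61.1 and 57.4 CPM untreated and 72.3, 57.6 and 77.4 CPM with arsenite in WDM cells, a difference of -0.84 (adjusted p = 0.0386, range 0.00120 to 0.186). In APOLD1 the WT change was already present with tetracycline alone (log2 -0.56). Untreated levels of ANOS1, COL5A2, LRRC7 and APOLD1 already differed between the lines without overlap. LRRC7 was named after its value was seen, and its WT rise was not called without untreated replicate 2 (adjusted p = 0.0511).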

How the results depend on the processing

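The net change had 3633 to 4490 calls, against 5390, when any 1 library was left out, and 4891 to 7611 under the other alternatives. Leave-one-out ranges were 1694 to 2181 for rises and 1881 to 2309 for falls (1881 without arsenite replicate 1), 628 to 778 and 186 to 222 for rises and falls of at least 1 on the log2 scale, 189 to 1766 for the tetracycline step, 2440 to 7204 for the arsenite step, 4987 to 6479 for the WDM net change and 1 to 3 for the line difference. For the classes they were 917 to 2078 for rises above both states, 14 to 237 for recoveries of a fall, 9 to 147 for those within the 1.5-fold bound, 772 to 2098 for falls below both states, 28 to 619 for recoveries of a rise (highest without tetracycline replicate 1, against 160) and 101 to 508 for kept changes. Fitting only the groups compared gave 3842 rises, 220 tetracycline calls, 2737 arsenite-step calls, 8 line differences and 80 recoveries within the bound. Scaling by library size alone gave 1841 falls, 617 falls below both states (1509 by TMM), 77 recoveries of a rise and 2 line differences. Without the low-count filter there were 1000 falls below both states and 17 line differences, and DESeq2 gave 7 line differences. The 2-fold bound held 70 of the 74 recoveries. With the replicate block 6127 genes were called in the net change, 84 recoveries lay within the bound and 285 genes were recoveries of a rise. Of 85 named genes called in the net change, 69 kept their call in all 12 alternatives and none changed sign in any of them. With 1 library left out, edgeR's adjusted p reached 0.0614 for SRSF5 (untreated replicate 1), 0.0613 for CDKN1A (untreated 2 or arsenite 1), 0.0640 for HSPH1 (untreated 1 or arsenite 1), 0.0845 for MT-RNR1, 0.134 for FAS (untreated 1, or arsenite 2 or 3), 0.131 for TRIB1 (untreated 1 or 2, or arsenite 2), 0.0647 for AHNAK (untreated 1, or arsenite 2 or 3), 0.0944 for CHAC1 (untreated 2 or 3, or arsenite 2 or 3), 0.109 for ME1 (untreated 2 or 3, or arsenite 1 or 2) and 0.0794 for CREBBP; for HSPD1 and NEAT1, lost without any of the 6, it reached 0.120 and 0.135. Uncalled values crossed 0 for DENND2A (-0.37 to 0.018 with 1 library left out), HSP90AA1 (-0.0016 to 0.29) and LINC01409 (-0.21 to 0.087, and 0.015 with library size alone). The share of low-level rising genes with an upstream neighbour was 27.7% with a 5 kb window, 51.8% with 20 kb and 47.2% with neighbours of at least 1 CPM, settings chosen after seeing the data. Causes were not tested. With 3 libraries a group, levels below 0.325 CPM cannot be told from 0 in the smallest library.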
